A study of Mus musculus with 12 samples.

Results

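The amino acid transporter families described here are the genes whose symbol starts with Slc1a, Slc3a, Slc6a, Slc7a, Slc36a or Slc38a followed only by a number. Of the 53379 gene rows in the tables, 58 matched that rule, and 48 of them had enough reads to be tested. The rule leaves out Slc6a20a and Slc6a20b, whose symbols end in a letter, and 4 opposite-strand transcripts. RNA was sequenced from mouse ZHBTc4 embryonic stem cells of strain 129/Ola, a line with both native copies of Pou5f1 inactivated. Its only Oct4, the pluripotency factor Pou5f1 encodes, is made by a transgene that doxycycline turns off. Wild type (WT) cells and Phf6 knockout (KO) cells were each left untreated in medium with leukemia inhibitory factor (LIF), given doxycycline for 2 days, or given all-trans retinoic acid for 4 days without LIF, which makes 6 groups of 2 libraries. The dose of doxycycline reads 0.5 µg/ml in the sample labels and 0.5 mg/ml in their protocol text, and that of retinoic acid reads 10 mM. All cells had been started on fibroblast feeders and then kept on gelatin, in medium with 2 mM glutamine and 0.1 mM nonessential amino acids. The labels do not say how many KO clones were used. They also do not say whether replicates were grown apart, so each p-value reflects library-to-library spread that may be technical.

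Amino acids cross membranes largely through carriers, and each family has its own way of driving them. The Slc7 light chains exchange amino acids across the plasma membrane and most of them need the single-pass heavy chain Slc3a2 (CD98) or Slc3a1 to reach the surface. Slc7 cationic carriers such as Slc7a1 and Slc7a3 bring in arginine and lysine without a heavy chain. The class of that name below also holds Slc7a2, Slc7a4 and Slc7a14. Slc1 holds the glutamate carriers and the neutral exchangers ASCT1 and ASCT2, Slc6 the sodium and chloride coupled carriers of neurotransmitters, creatine, taurine and neutral amino acids, Slc36 the proton-coupled carriers, and Slc38 the sodium-coupled neutral (SNAT) carriers of glutamine and alanine. Mouse embryonic stem cells are known to depend on threonine and glutamine, and the trophectoderm and the placenta it forms carry amino acids to the embryo.

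The libraries held 15799517 to 21441996 counts, and the 58 genes together took 0.234% to 0.266% of them. Phf6 was at 42.7 and 40.1 CPM (reads of a gene relative to the scaled library total) in the untreated WT libraries and at 4.48 and 6.5 in the untreated KO libraries, with log2 differences of -2.91, -2.06 and -2.77 in untreated, doxycycline and retinoic acid cells. Pou5f1 stood at 1031 and 1012 CPM in untreated WT cells, at 34 and 46.3 after doxycycline and at 972 and 1080.2 after retinoic acid. Summed over 20 trophectoderm markers, levels ran from 234 to 237 CPM in untreated WT cells to 2942 to 3318 after doxycycline, and from 180.4 to 181 to 1739.5 to 1848 in KO cells, with Tpbpa and Prl3d1 at 0 in every group. Retinoic acid took 18 markers of primitive and visceral endoderm from 407 to 411 CPM to 5189 to 5425 in WT and from 384 to 388 to 10927 to 11510.1 in KO. The sums of both lists rose under both treatments. Doxycycline took the endoderm markers to 1073 to 1075 CPM in WT and 1338 to 1378 in KO. Retinoic acid took the trophectoderm markers to 591 to 631 CPM in WT and 630 to 660 in KO. The summed level of 17 fibroblast markers was 107 to 108 CPM in untreated WT libraries, 130.3 to 138 after doxycycline and 249.5 to 252 after retinoic acid, and 149.7 to 156, 223 to 244 and 316 to 322 in KO. In bulk RNA, fewer cells of a type and less RNA per cell cannot be told apart. Per the labels, the retinoic acid libraries also went through another RNA extraction kit than the rest, so the kit and the medium without LIF cannot be told apart from retinoic acid in any comparison that sets those libraries against others. No group was given doxycycline with Oct4 left on, so the drug itself cannot be told apart from the loss of Oct4.

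Of the 58 genes, 37 had at least 3 counts in each of the 12 libraries, and 16 had a mean of at least 10 CPM in each of the 6 groups. Slc7a12 and Slc7a13 had no read in any library. A count of 0 allows up to 3 counts, which is 0.132 to 0.204 CPM in these libraries, so both were not detectable above that level rather than shown to be off. The other 8 genes left untested (Slc1a7, Slc36a3, Slc38a11, Slc6a2, Slc6a5, Slc6a11, Slc6a18 and Slc7a15) reached at most 11 counts in a library. They were too low to compare between groups. Such limits, and the counting intervals given later, cover counting error alone, because reads here carry no molecular identifiers.

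A small set of carriers made up most of the transporter RNA. Compared per length with the TPM values the authors deposited, a length-corrected share of all transcripts, the summed level of the 58 genes was 1289 and 1255 TPM in the untreated WT libraries, and it ranged from 1023 to 1289 over all 12. The 10 most abundant genes of each library held between 81.8% and 87.5% of that sum. Averaged over the 12 libraries, the order was Slc38a4 (208 TPM), Slc3a2 (159), Slc38a2 (95.5), Slc7a5 (85.8), Slc6a8 (78.2), Slc6a6 (75.7), Slc1a5 (71.9), Slc38a10 (65.2), Slc7a3 (64.3) and Slc7a6 (37.5). The leading gene changed with treatment: Slc3a2 was first in all 4 untreated libraries, and Slc38a4 was first in all 8 treated ones. Slc3a2 stood at 247 and 249 TPM in untreated WT cells against 118 and 112 for Slc38a4. After doxycycline the order was the other way round, with 116 and 123 TPM for Slc3a2 and 273 and 295 for Slc38a4.

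**Figure D1:**
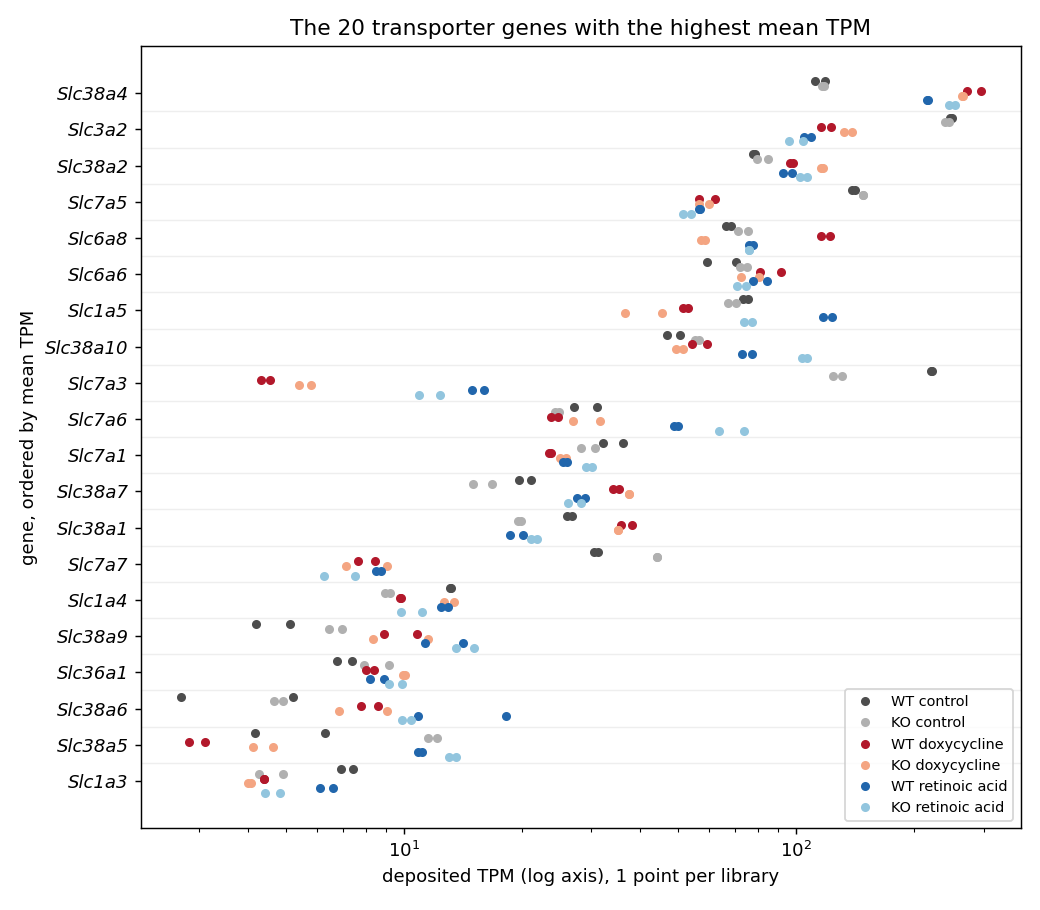
Deposited TPM (log axis) of the 20 transporter genes with the highest mean, 1 point per library and 1 colour per group. Slc38a4 lies furthest right after either treatment, and the treated points of Slc7a3 lie well to the left of its untreated points.

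Summed by class in TPM, the cationic carriers shrank most in proportion and the SNAT carriers gained, the latter mainly on that scale after retinoic acid. The 5 cationic carriers summed to 260.5 and 257 TPM in untreated WT cells, 31.8 and 30.3 after doxycycline and 51.3 and 48.5 after retinoic acid. In KO cells they summed to 163 and 159 TPM untreated, to 36.1 and 37.9 after doxycycline and to 55.4 and 53.4 after retinoic acid. The 11 SNAT carriers went from 314 and 299 TPM in untreated WT cells to 517 and 546 after doxycycline and 479.8 and 476 after retinoic acid. In CPM the same 11 genes summed to 985 and 989 in untreated WT libraries, 1471 and 1515 after doxycycline and 1027 and 1030.1 after retinoic acid, so the gain after retinoic acid was small in scaled counts. For the 2 heavy chains, the sums were 247 and 249 TPM in untreated WT cells, 116 and 123 after doxycycline and 109 and 105 after retinoic acid. These class sums were not tested, and in each case the libraries of the treated and untreated WT groups did not overlap.

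**Figure D2:**
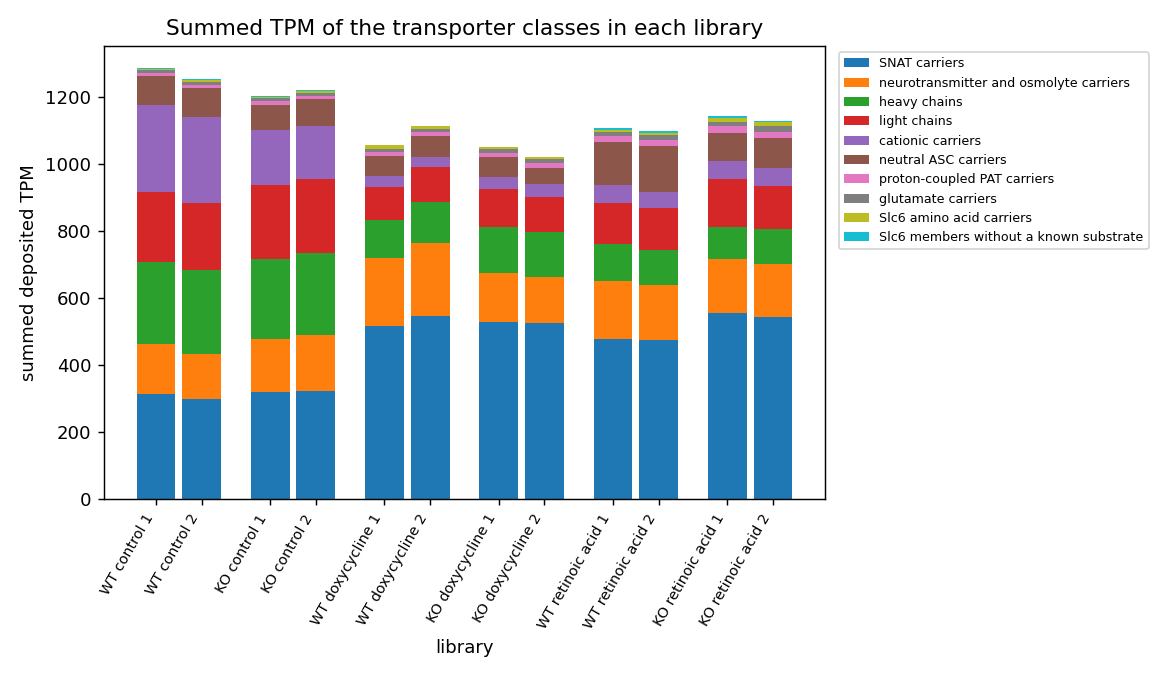
Summed deposited TPM of the 10 transporter classes, stacked for each of the 12 libraries. The SNAT layer is wider and the cationic, heavy chain and light chain layers are narrower in every treated library than in the untreated libraries of the same line.

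Genes are called changed below where the edgeR quasi-likelihood test, adjusted over all 17884 genes tested, gave a p under 0.05, and levels followed between groups are in CPM.

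When Oct4 was shut down with doxycycline, the arginine carrier Slc7a3 and the light chain Slc7a7 fell steeply, the CD98 heavy chain Slc3a2 and its partner Slc7a5 fell less far, and the broad carrier Slc6a14, the cystine carrier Slc7a11 and the abundant Slc38a4 rose. In WT cells 17 members rose and 18 fell, 35 of 48 in all, while 63% of all genes tested were called (31.8% higher and 31.3% lower). In KO cells 20 rose and 18 fell, beside 62.3% of all genes (31.2% higher and 31.2% lower). A change of at least 2-fold was called for 9 higher and 12 lower members in WT, beside 25.2% of all genes (12.9% higher and 12.3% lower). In KO it was called for 10 higher and 12 lower members, beside 24.7% (12.7% higher and 12% lower). The median absolute log2 change was 1.09 over the members in WT, with 0.54 over all genes, and 1.03 with 0.53 in KO. Of the members called, 14 were higher in both lines and 12 lower in both. The matching share over all genes is not given here, so these counts show nothing particular to the carriers.

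Slc7a3, which encodes the cationic carrier CAT3 (chrX:101079210-101086020, GRCm38), was among the highest transporter transcripts of untreated cells and fell furthest of the abundant members. It stood at 351 and 360.4 CPM in the untreated WT libraries and at 7.69 and 7.36 after doxycycline, which was 47.3-fold lower (log2 change -5.56, SE 0.074, edgeR adjusted p = 9.17e-30). In KO cells the values were 207 and 195 CPM and 9.39 and 7.88, or 23.2-fold lower (log2 change -4.54, SE 0.074, edgeR adjusted p = 1.02e-27). The treated and untreated libraries lay far apart in both lines. The related carrier Slc7a1 (CAT1), the widely expressed arginine importer, went only from 199 and 181 to 120.3 and 122 CPM in WT, 1.57-fold lower (log2 change -0.65, SE 0.052, edgeR adjusted p = 8.49e-12). Its KO values went from 157 and 164 to 123 and 123 CPM, 1.3-fold lower (log2 change -0.38, SE 0.052, edgeR adjusted p = 2.98e-07). Slc7a3 thus had 6.12 and 6.86 times the TPM of Slc7a1 in the untreated WT libraries, and 0.194 and 0.183 times after doxycycline. Among the other cationic carriers, Slc7a2 (CAT2) and Slc7a4 were called in KO cells alone, at a log2 change of 0.77 and 0.71, where their WT values were 0.018 and 0.045; the difference between the lines did not pass its own test (edgeR adjusted p = 0.0681 and 0.0722).

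The heavy chain Slc3a2 (chr19:8706882-8723369) and its partner Slc7a5 (LAT1), which exchanges glutamine for leucine and other large neutral amino acids, fell together. Slc3a2 went from 309 and 316 to 134 and 143 CPM in WT, 2.25-fold lower (log2 change -1.17, SE 0.054, edgeR adjusted p = 4.17e-17). In KO it went from 306 and 306 to 161 and 146 CPM, 1.99-fold lower (log2 change -1.0, SE 0.054, edgeR adjusted p = 1.48e-15). Slc7a5 went from 368 and 381 to 141 and 151 CPM in WT, 2.57-fold lower (log2 change -1.36, SE 0.055, edgeR adjusted p = 1.40e-18). In KO it went from 399 and 384 to 146 and 129 CPM, 2.84-fold lower (log2 change -1.51, SE 0.055, edgeR adjusted p = 1.47e-19). The treated and untreated libraries did not overlap for either gene in either line. Slc7a7 (y+LAT1), the light chain that exports cationic amino acids, went from 38.7 and 38.3 to 6.12 and 7.92 CPM in WT, 5.4-fold lower (log2 change -2.43, SE 0.11, edgeR adjusted p = 8.35e-18), with a log2 change of -2.57 in KO. Not all light chains fell: Slc7a8 (LAT2) rose from 3.0 and 3.8 to 9.94 and 8.27 CPM in WT, 2.66-fold higher (log2 change 1.41, SE 0.17, edgeR adjusted p = 3.50e-08), and by a log2 change of 0.95 in KO.

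Slc7a11 (chr3:49892526-50443614) rose in both lines, where the light chains Slc7a5 and Slc7a7 fell in both. It encodes xCT, which imports cystine in exchange for glutamate and feeds glutathione synthesis. The untreated WT libraries held 11.1 and 11.7 CPM and the doxycycline libraries 37.6 and 47.9, 3.77-fold higher (log2 change 1.92, SE 0.17, edgeR adjusted p = 1.37e-06). In KO cells it went from 12 and 11.6 to 88.3 and 65.5 CPM, 6.53-fold higher (log2 change 2.71, SE 0.16, edgeR adjusted p = 3.81e-08). Both KO doxycycline libraries were above both WT ones. Per length Slc7a11 remained a minor transcript beside its heavy chain, with 0.0473 and 0.057 times the TPM of Slc3a2 in the doxycycline WT libraries and 0.00612 and 0.00618 times in the untreated ones.

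The promoter of Slc7a11 is shown because it is a textbook target of the amino acid response, in which the factor ATF4 binds a composite site with the core TGATGNAA, and Slc1a4 and Slc7a7 are shown because their windows hold the same letters. RefSeq (GRCm38.p6) promoter windows, 250 bases before to 50 bases after a start, were found for 41 of the 58 genes, 61 windows in all, and were searched on both strands. The letters TGATGNAA were present in windows of 4 of the 41 genes, the fourth being Slc6a21, and of 4.51% of all 27025 genes with a window (5 of the 61 windows here and 3.97% of all 32851). The lines below run from 250 bases before to 10 bases after the start, 5′ to 3′ on the gene's strand, which is the minus strand for each, and capitals mark matches on either strand.
Slc7a11, chr3:50443604-50443863: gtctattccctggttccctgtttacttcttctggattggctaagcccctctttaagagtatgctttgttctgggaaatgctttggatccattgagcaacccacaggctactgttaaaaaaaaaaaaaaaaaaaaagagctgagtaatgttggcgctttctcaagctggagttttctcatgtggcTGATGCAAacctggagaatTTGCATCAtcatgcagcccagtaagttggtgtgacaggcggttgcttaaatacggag
Slc1a4, chr11:20332704-20332963: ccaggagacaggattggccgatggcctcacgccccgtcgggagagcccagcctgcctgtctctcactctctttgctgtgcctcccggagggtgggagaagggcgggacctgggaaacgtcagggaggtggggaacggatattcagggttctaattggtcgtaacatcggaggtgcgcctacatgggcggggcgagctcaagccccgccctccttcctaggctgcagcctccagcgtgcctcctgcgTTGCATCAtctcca
Slc7a7, chr14:54417935-54418194: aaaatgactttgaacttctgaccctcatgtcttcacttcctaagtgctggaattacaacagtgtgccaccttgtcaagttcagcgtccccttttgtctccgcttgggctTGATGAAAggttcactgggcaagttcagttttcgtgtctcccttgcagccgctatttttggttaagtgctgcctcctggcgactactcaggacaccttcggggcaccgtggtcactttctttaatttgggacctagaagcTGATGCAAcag
Counted from 1 at the window's 5′ end, Slc7a11 had matches starting at base 185 on the gene's strand and at base 204 on the opposite strand, Slc1a4 1 match at base 247 on the opposite strand, and Slc7a7 matches at bases 110 and 250 on its own strand. Another Slc7a7 window, chr14:54417653-54417952, had a match at base 8, which is the same site as base 250 of the printed window. The window with the most matches was printed. The octamer ATGCAAAT, the letters Oct4 is known to bind, was found in 2 of the 41 genes, Slc7a11 and Slc6a12, and in 1.97% of all genes with a window, and in Slc7a11 it overlapped the opposite-strand match at base 204. The E-box letters CACGTG were found in 8 of the 41 genes and in 8.09% of all genes with a window. A match only describes the letters, and nothing was measured here on binding.

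In the same cells the genes with those letters did not all move alike under doxycycline. Slc6a21, under 1 CPM in each group, was not called. Slc7a11 rose in both lines and Slc7a7 fell in both. Slc1a4 (ASCT1), a neutral exchanger of serine, alanine and threonine, went from 40.3 and 40.7 to 27.8 and 27.8 CPM in WT, 1.46-fold lower (log2 change -0.54, SE 0.076, edgeR adjusted p = 4.35e-07). Its KO values went from 27.3 and 27.5 to 35.5 and 36.1 CPM, 1.31-fold higher (log2 change 0.39, SE 0.078, edgeR adjusted p = 8.14e-05). Its relative Slc1a5 (ASCT2), a main importer of glutamine, went from 97.3 and 96.6 to 55.9 and 60.7 CPM in WT, 1.66-fold lower (log2 change -0.73, SE 0.057, edgeR adjusted p = 4.71e-12). Its KO values went from 93 and 88.2 to 50.1 and 48.8 CPM, 1.83-fold lower (log2 change -0.87, SE 0.058, edgeR adjusted p = 1.58e-13).

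Slc6a14 had the largest rise after doxycycline among the tested members in both lines. Slc6a14 (ATB0,+), a concentrating carrier of neutral and cationic amino acids on the X chromosome (chrX:21714896-21742355), held 2 counts in the untreated WT libraries together and 631 after doxycycline, at 20.9 and 16.3 CPM, a ratio of 302 with a 95% counting interval of 83.4 to 2502. In KO cells it went from 2 counts to 252, at 7.15 and 7.4 CPM, a ratio of 117 with an interval of 32 to 969. Both changes passed the test (edgeR adjusted p = 6.78e-18 and 2.70e-14). Slc6a15 (B0AT2), a carrier of branched-chain amino acids and proline, fell in both lines, from 9.17 and 10.2 to 2.38 and 2.42 CPM in WT.

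**Figure D3:**
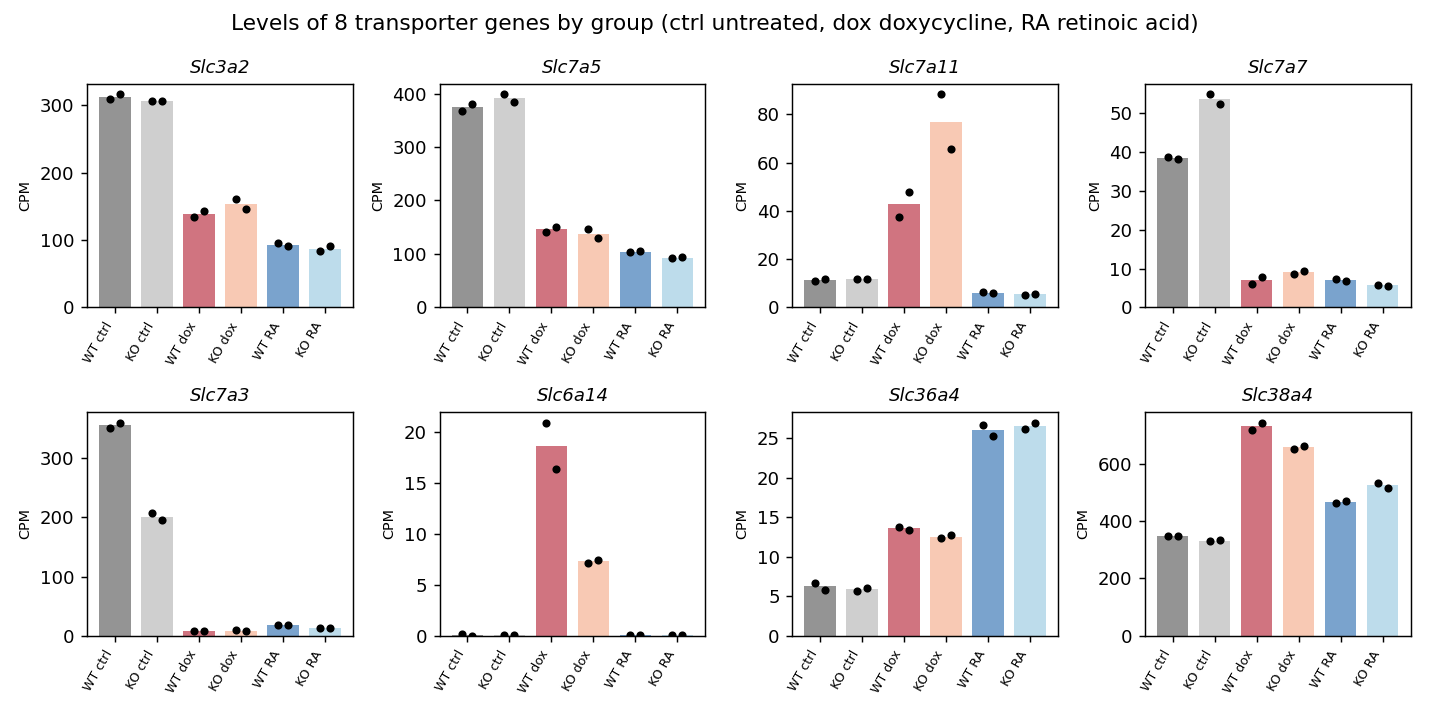
CPM of 8 transporter genes in the 6 groups; bars are means and points the 2 libraries of each group. Slc7a3, Slc3a2, Slc7a5 and Slc7a7 are low in all treated libraries, Slc6a14 and Slc7a11 are high only in the doxycycline bars, and Slc36a4 and Slc38a4 are higher in every treated library than in the untreated libraries of the same line.

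Among the SNAT carriers, 7 of 10 tested rose and 2 fell in WT, beside 31.8% of all genes higher and 31.3% lower. In KO 6 rose and 3 fell, beside 31.2% of all genes higher and 31.2% lower. Slc38a4 (chr15:96994820-97055956), a gene known to be imprinted with expression from the paternal allele and abundant in placenta, went from 349 and 349 to 718 and 744 CPM in WT, 2.09-fold higher (log2 change 1.07, SE 0.046, edgeR adjusted p = 9.13e-18). Its KO values went from 332 and 332 to 652 and 663 CPM, 1.98-fold higher (log2 change 0.99, SE 0.046, edgeR adjusted p = 5.92e-17). Its neighbours on chromosome 15 also rose, Slc38a1 (SNAT1) by a log2 change of 0.35 in WT and 0.71 in KO, and Slc38a2 (SNAT2), which starved cells are known to raise, by 0.19 and 0.38; the WT call of Slc38a2 was lost with upper-quartile scaling (edgeR adjusted p = 0.159). Slc38a2 itself went from 283 and 290.0 to 325 and 330.2 CPM in WT and from 288 and 299.6 to 392 and 370.4 in KO. The lysosomal carriers Slc38a7 and Slc38a9, the latter an arginine sensor of mTORC1, rose in both lines, Slc38a7 by log2 changes of 0.75 and 1.12 and Slc38a9 by 0.43 and 0.35. Slc38a6 also rose, by 0.99 and 0.92. Slc38a3 and Slc38a5, the system N carriers, fell instead. Slc38a3 went from 6.23 and 6.72 to 1.02 and 0.908 CPM in WT, 6.72-fold lower (log2 change -2.75, SE 0.24, edgeR adjusted p = 7.62e-11). In KO it went from 13.7 and 13.3 to 2.68 and 2.57 CPM, 5.13-fold lower (log2 change -2.36, SE 0.18, edgeR adjusted p = 2.97e-12).

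For Slc38a10, Slc6a6 and Slc7a6, also abundant, the changes were small, and for each the call in 1 of the lines did not hold under every setting. Slc38a10 was at 123 and 131 CPM in doxycycline WT and 112 and 114 in doxycycline KO libraries, log2 changes of 0.12 (edgeR adjusted p = 0.0498, and 0.0531 to 0.341 without any 1 of 7 libraries) and -0.26. The WT call of Slc38a10 was also lost under all 7 settings that keep every library, with an edgeR adjusted p of up to 0.974, reached with upper-quartile scaling. The taurine carrier Slc6a6 was at 264 and 255 CPM in WT and in KO at 211 and 215, log2 changes of 0.26 and -0.12; the KO call had an edgeR adjusted p of 0.0531 without KO untreated replicate 1, 0.181 without KO untreated replicate 2 and 0.125 without KO doxycycline replicate 1, 0.106 without the filter and 0.064 with only the groups compared, and its log2 change in TPM was 0.0553. Slc7a6 was at 53.4 and 56.5 CPM in WT and in KO at 68.4 and 64.6, log2 changes of -0.32 and 0.17, the KO call having an edgeR adjusted p of 0.111 without KO untreated replicate 2 and 0.108 without KO doxycycline replicate 1, 0.0989 with upper-quartile scaling and 0.0907 by DESeq2.

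Among the rest, the proton-coupled carrier Slc36a4 rose from 6.64 and 5.85 to 13.8 and 13.4 CPM in WT, 2.17-fold higher (log2 change 1.12, SE 0.12, edgeR adjusted p = 3.04e-09), and by a log2 change of 1.1 in KO. The glutamate carriers split: Slc1a6 (EAAT4) rose, from 0.999 and 0.747 to 3.95 and 4.79 CPM in WT, 5.0-fold higher (log2 change 2.32, SE 0.27, edgeR adjusted p = 1.19e-08), and Slc1a1 (EAAC1) fell, from 4.06 and 4.23 to 1.09 and 1.82, 2.76-fold lower (log2 change -1.46, SE 0.23, edgeR adjusted p = 2.33e-06). Slc1a2 (GLT-1) held 3 counts in each untreated group, and doxycycline took it to 36 in WT and 40 in KO, ratios of 11.5 (95% counting interval 3.63 to 58.4) and 12.3 (3.93 to 62.4). Slc6a13 (GAT2), a carrier of GABA and taurine, and Slc6a17 rose in both lines and Slc6a16, which has no known substrate, fell in both, all from 0.21 to 4.14 CPM in untreated cells. The Slc6a13 call was lost with single libraries left out, at an edgeR adjusted p of 0.169 without WT untreated replicate 2 and 0.0706 without WT doxycycline replicate 2 in WT and 0.0644 without KO untreated replicate 2 in KO. That of Slc6a17 in WT had an edgeR adjusted p of 0.144 without WT untreated replicate 1 and 0.052 by DESeq2. Slc7a10 and Slc6a12 were called lower in WT and Slc7a9 in KO, with no read in the treated libraries; against the 3-count floor Slc7a10 was at least 1.72-fold lower, and the others were under that floor before treatment too. The Slc6a12 call had an edgeR adjusted p of 0.0847 without WT untreated replicate 1, 0.0785 without WT doxycycline replicate 1 and 0.121 without WT doxycycline replicate 2 and 0.0566 by DESeq2. For Slc7a9 it was 0.0507 to 0.141 without any 1 of 8 libraries, 0.0692 without the filter and 0.0796 by DESeq2. The 6 members called in neither line were Slc36a1, Slc38a8, Slc3a1, Slc6a9, Slc6a19 and Slc6a21.

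**Figure D4:**
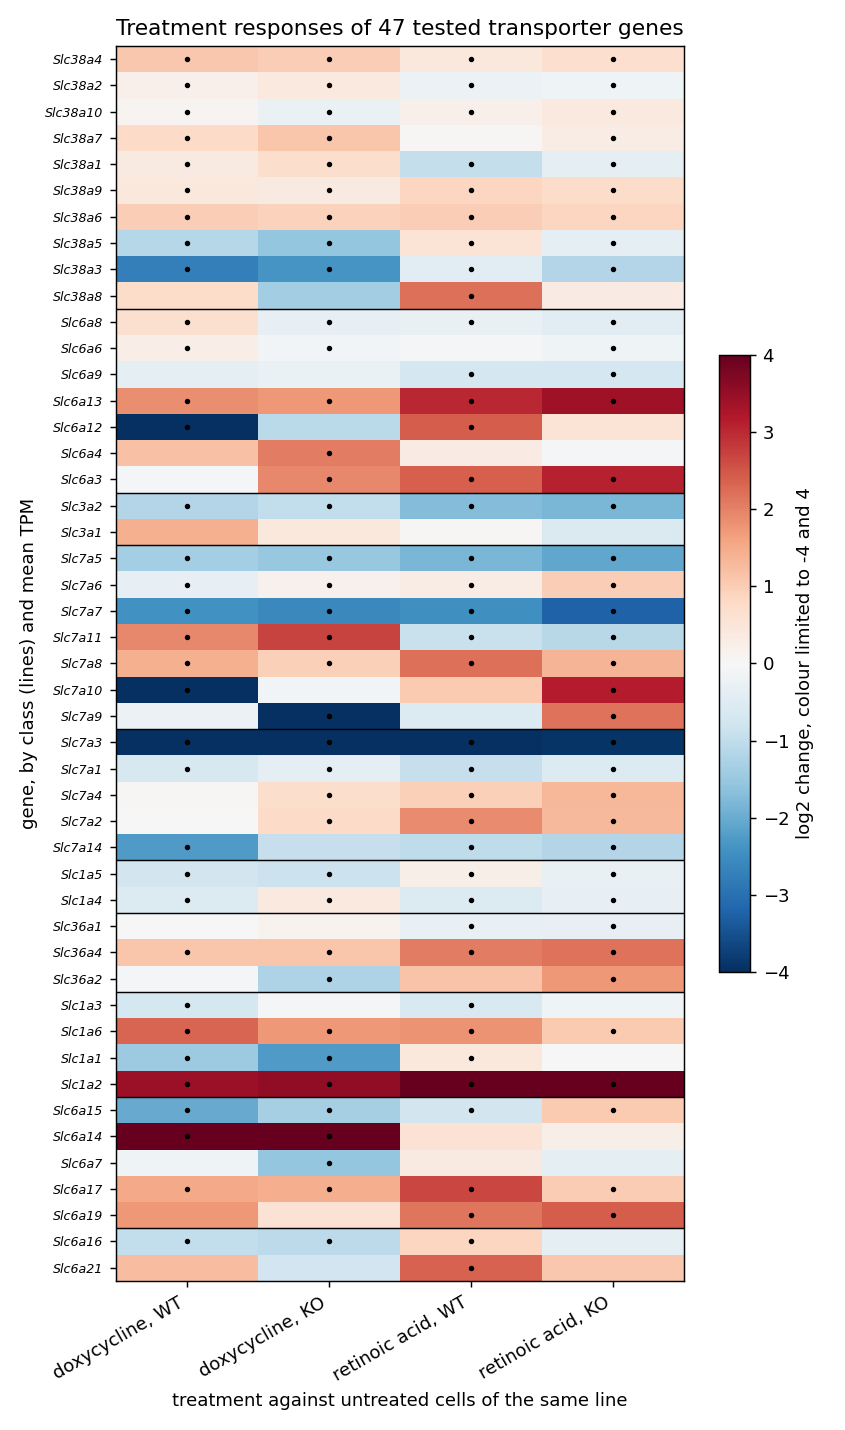
Log2 change of 47 tested transporter genes against untreated cells of the same line (colour limited to -4 and 4), grouped by class; a dot marks an edgeR adjusted p under 0.05. Most genes have the same colour in WT and KO, and Slc7a11 is red under doxycycline and blue under retinoic acid.

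Retinoic acid without LIF also lowered Slc7a3, Slc3a2, Slc7a5 and Slc7a7, left Slc6a14 near 0, and lowered Slc7a11 where doxycycline raised it. In WT cells 22 of 48 members rose and 17 fell, while 73.9% of all genes tested were called (41% higher and 32.9% lower). In KO cells 20 rose and 18 fell, beside 75.5% (40.9% higher and 34.6% lower). A change of at least 2-fold was called for 12 higher and 6 lower members in WT, beside 33.5% of all genes (23.3% higher and 10.2% lower). In KO the counts were 14 and 8, beside 36.6% (23.4% higher and 13.2% lower). Of the members called, 15 were higher in both lines and 15 lower in both, again without a matching share over all genes. The scale matters for the smaller falls: against the scaled counts, deposited TPM put the median gene higher by a log2 change of 0.46 in each line. On that scale, 4 of the members called in WT (Slc36a1, Slc38a2, Slc38a3 and Slc6a8) and 9 of those called in KO (Slc1a4, Slc1a5, Slc36a1, Slc38a1, Slc38a2, Slc38a5, Slc6a8, Slc6a9 and Slc7a1) changed from lower to higher, so their direction relative to untreated cells depends on the scaling. Outside those genes, the falls and rises described next kept their direction on the TPM scale. Together with the endoderm markers, 13 of 15 tested fibroblast markers rose in WT and 12 in KO, and their part in the changes of the carriers was not tested.

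Slc7a3 stood at 17.4 and 18 CPM in the retinoic acid WT libraries, 20.1-fold lower (log2 change -4.33, SE 0.063, edgeR adjusted p = 1.83e-28), and at 13.4 and 13.1 in KO, 15.2-fold lower (log2 change -3.92, SE 0.067, edgeR adjusted p = 4.17e-27). Slc3a2 was at 95.2 and 90.7 CPM in WT, 3.36-fold lower (log2 change -1.75, SE 0.055, edgeR adjusted p = 6.30e-21), and at 83.6 and 90.5 in KO, 3.52-fold lower (log2 change -1.81, SE 0.056, edgeR adjusted p = 2.28e-21). Slc7a5 was at 103 and 106 CPM in WT, 3.59-fold lower (log2 change -1.84, SE 0.055, edgeR adjusted p = 2.00e-21), and at 91.5 and 94 in KO, 4.21-fold lower (log2 change -2.08, SE 0.056, edgeR adjusted p = 1.16e-22). All of these libraries were below every untreated library. Slc7a5 had 0.573 and 0.557 times the TPM of Slc3a2 in untreated WT cells and 0.522 and 0.541 times after retinoic acid. Slc7a7 was at 7.21 and 6.73 CPM in WT, 5.51-fold lower (log2 change -2.46, SE 0.10, edgeR adjusted p = 2.63e-18), and at 5.8 and 5.59 in KO, 9.39-fold lower (log2 change -3.23, SE 0.10, edgeR adjusted p = 5.58e-21). Slc7a11 was at 6.29 and 5.88 CPM in WT, 1.87-fold lower (log2 change -0.90, SE 0.22, edgeR adjusted p = 0.00309), and at 5.28 and 5.64 in KO, 2.16-fold lower (log2 change -1.11, SE 0.22, edgeR adjusted p = 9.19e-04).

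In 4 abundant carriers the direction depended on the scale in at least 1 line. Slc38a2 was at 249 and 237 CPM in WT and 264 and 256 in KO, log2 changes of -0.24 and -0.18, both called lower but higher in TPM. Slc6a8, at 108 and 109 and in KO 105 and 106, was likewise called lower in both lines (log2 -0.31 and -0.44) and higher in TPM. Slc7a1 fell in WT to 99 and 99.5 CPM on either scale, 1.91-fold lower (log2 change -0.94, SE 0.052, edgeR adjusted p = 2.08e-15), while in KO, at 112 and 109, its log2 change of -0.54 was 0.00526 in TPM. Slc1a5 rose in WT to 113 and 115, 1.18-fold higher (log2 change 0.23, SE 0.053, edgeR adjusted p = 2.86e-04), and in KO was at 72.9 and 73.2, with -0.31 in scaled counts and 0.13 in TPM.

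Other light and cationic chains rose. Slc7a8 reached 14.7 and 16.5 CPM in WT, 4.6-fold higher (log2 change 2.2, SE 0.16, edgeR adjusted p = 4.47e-13), and 8.55 and 9.09 in KO, 2.59-fold higher (log2 change 1.37, SE 0.17, edgeR adjusted p = 3.20e-08). Slc7a6 (y+LAT2), which exchanges arginine for glutamine, rose from 60.2 and 58.4 to 119 and 117 CPM in KO, 1.99-fold higher (log2 change 0.99, SE 0.056, edgeR adjusted p = 2.57e-15), with a log2 change of 0.31 in WT. Slc7a2 reached 9.98 and 8.87 CPM in WT, 3.67-fold higher (log2 change 1.88, SE 0.17, edgeR adjusted p = 1.14e-10), and Slc7a4 11 and 10.7 in KO, 2.49-fold higher (log2 change 1.31, SE 0.15, edgeR adjusted p = 1.35e-08). In WT, then, the low CAT2 and CAT4 transcripts were higher and the abundant CAT3 transcript lower.

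Slc36a4 rose further than under doxycycline, to 26.7 and 25.4 CPM in WT, 4.17-fold higher (log2 change 2.06, SE 0.11, edgeR adjusted p = 5.68e-16), and 26.2 and 27 in KO, 4.54-fold higher (log2 change 2.18, SE 0.11, edgeR adjusted p = 1.86e-16). Slc1a2 reached 71 counts in WT and 112 in KO from 3 in each untreated group, ratios of 18.3 (95% counting interval 6.01 to 90.8) and 29.5 (9.85 to 145). Slc6a13 rose from 0.32 and 0.243 to 2.76 and 3.24 CPM in KO, 10.4-fold higher (log2 change 3.38, SE 0.45, edgeR adjusted p = 1.47e-07). Slc38a4 rose again, to 463 and 469 CPM in WT, 1.34-fold higher (log2 change 0.42, SE 0.046, edgeR adjusted p = 4.60e-09), and 532 and 517 in KO, 1.58-fold higher (log2 change 0.66, SE 0.046, edgeR adjusted p = 3.09e-13). Slc38a1 fell in WT from 156 and 155 to 83 and 78 CPM, 1.93-fold lower (log2 change -0.95, SE 0.052, edgeR adjusted p = 1.66e-15), where doxycycline had raised it. Slc6a14 stayed at 0.088 and 0.0996 CPM in WT and 0.0935 and 0.0522 in KO, under the 3-count floor. The 4 members called in neither line were Slc3a1, Slc6a4, Slc6a7 and Slc6a14. Of the genes under 1 CPM in untreated cells, the dopamine carrier Slc6a3 reached 2.01 and 2.35 CPM in KO and Slc36a2 2.34 and 2.25, both called higher, and Slc6a17 reached 2.2 and 1.74 CPM in WT, 6.42-fold higher (log2 change 2.68, SE 0.43, edgeR adjusted p = 2.43e-06).

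Set directly against each other, the treated groups differed at 34 of 48 members in WT (13 higher and 21 lower in doxycycline), where 70.6% of all genes were called (33.2% higher and 37.4% lower). In KO they differed at 39 members (15 higher and 24 lower), beside 71.2% of all genes (33.3% higher and 37.9% lower). Slc6a14 and Slc7a11 were the members furthest above their retinoic acid level in doxycycline: Slc7a11 was 7.05-fold higher in WT (log2 2.82, SE 0.18, edgeR adjusted p = 5.85e-08) and 14.1-fold higher in KO (log2 3.82, SE 0.18, edgeR adjusted p = 2.92e-09). Slc7a3, though lowered by both treatments, was at 17.4 and 18 CPM in retinoic acid WT cells against 7.69 and 7.36 in doxycycline. Slc38a1, Slc38a4 and Slc6a8, the creatine carrier, were higher in doxycycline WT cells, by log2 differences of 1.3, 0.65 and 0.96. The 2 comparisons with untreated cells share those untreated libraries, and their values for each gene are given side by side above without a test of likeness.

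Fewer carriers differed between KO and WT cells than between treated and untreated cells. In untreated cells KO was higher than WT for 8 of 48 members and lower for 9, while 30% of all genes tested were called (15.2% higher and 14.9% lower). After doxycycline 15 were higher and 9 lower, beside 37% of all genes (17.9% higher and 19.1% lower). After retinoic acid 13 were higher and 10 lower, beside 38.8% (18.8% higher and 20% lower). The last count rested on single libraries: 14 were called without WT retinoic acid replicate 1 and 15 without KO retinoic acid replicate 1. No member lies on chromosome 1, whose genes were lower in KO as a whole, with medians of -0.46, -0.46 and -0.46 (log2) over 1087 genes in the 3 conditions. The loss of Phf6 cannot be told apart from this shift or from other differences between the lines. 1 member, Slc1a6, was higher in KO in all 3 conditions, and 8 were called in none: Slc36a4, Slc38a6, Slc38a9, Slc3a1, Slc6a9, Slc6a12, Slc6a21 and Slc7a10. No matching share over all genes is given for either count, so they show nothing particular to the carriers.

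In untreated cells the arginine carriers Slc7a3 and Slc7a1 were lower in KO than in WT. Slc7a3 stood at 351 and 360.4 CPM in WT and 207 and 195 in KO, 1.77-fold lower (log2 change -0.82, SE 0.05, edgeR adjusted p = 6.43e-13), and Slc7a1 at 199 and 181 against 157 and 164, 1.18-fold lower (log2 change -0.24, SE 0.051, edgeR adjusted p = 5.21e-04). Slc1a4 (40.3 and 40.7 against 27.3 and 27.5 CPM; log2 change -0.56, SE 0.077, edgeR adjusted p = 1.43e-06), Slc38a1 (log2 change -0.46, SE 0.052, edgeR adjusted p = 6.36e-08) and the glutamate carrier Slc1a3, or GLAST (log2 change -0.87, SE 0.11, edgeR adjusted p = 5.69e-07), were lower as well. In KO cells Slc7a7 was 1.39-fold higher (log2 change 0.48, SE 0.082, edgeR adjusted p = 4.42e-05). The system N carrier Slc38a3 was at 13.7 and 13.3 CPM in KO against 6.23 and 6.72, 2.09-fold higher (log2 change 1.06, SE 0.16, edgeR adjusted p = 4.69e-06). The other, Slc38a5, was at 16.8 and 15.4 against 8.64 and 5.85, 2.21-fold higher (log2 change 1.15, SE 0.15, edgeR adjusted p = 5.73e-07). The KO and WT libraries did not overlap for any of these. The fibroblast markers, at 149.7 to 156 CPM in KO and 107 to 108 in WT, were called higher in KO for 6 of 15 and lower for 2, and their part in these differences was not tested. For the CD98 pair no difference passed the test: Slc3a2 (log2 difference -0.031, 95% interval -0.16 to 0.10, edgeR adjusted p = 0.717) and Slc7a5 (log2 difference 0.062, 95% interval -0.066 to 0.19, edgeR adjusted p = 0.41). Of the other abundant carriers, Slc6a6 stood at 220.3 and 211 CPM in untreated WT libraries against 228 and 235 in KO, and Slc38a10 at 119 and 115 against 136 and 134. Slc7a6 stood at 70.9 and 66.8 against 60.2 and 58.4.

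After doxycycline the KO cells held less Slc6a14 and Slc6a8 and more Slc7a11. Slc6a14 was at 7.15 and 7.4 CPM against 20.9 and 16.3 in WT, 2.54-fold lower (log2 change -1.35, SE 0.16, edgeR adjusted p = 5.18e-08). Slc6a8 (chrX:73673150-73682502), which imports creatine, was at 116 and 109 against 206 and 217, 1.88-fold lower (log2 change -0.91, SE 0.049, edgeR adjusted p = 1.72e-14). Slc7a11 was at 88.3 and 65.5 against 37.6 and 47.9, 1.79-fold higher (log2 change 0.84, SE 0.13, edgeR adjusted p = 4.78e-04). The trophectoderm markers moved with the first pair, at 1739.5 to 1848 CPM in KO and 2942 to 3318 in WT, with 15 of 17 tested markers lower in KO and none higher, while the feeder fibroblast markers were at 223 to 244 CPM in KO and 130.3 to 138 in WT, 9 of 15 higher in KO and none lower. The pluripotency markers were at 855 to 893 CPM in KO and 1094 to 1139 in WT, 11 of 16 lower and 3 higher, and the neural markers at 311 to 320.2 and 194 to 199.6, with 3 of 13 higher and 3 lower. The summed endoderm markers were at 1338 to 1378 CPM in KO and 1073 to 1075 in WT. The part of all these markers in the differences was not tested. Slc7a4 (log2 change 1.09, SE 0.17, edgeR adjusted p = 9.32e-06), Slc7a2 (log2 change 1.03, SE 0.19, edgeR adjusted p = 7.36e-05), Slc38a3 (log2 change 1.45, SE 0.29, edgeR adjusted p = 1.75e-04) and Slc1a4 (log2 change 0.37, SE 0.077, edgeR adjusted p = 3.41e-04) were higher in KO. Slc3a2 passed narrowly at a log2 difference of 0.14 (edgeR adjusted p = 0.0427), with an adjusted p of 0.0639 to 0.465 without any 1 of 10 libraries and 0.0724 by DESeq2.

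After retinoic acid the KO cells held less Slc1a5 and more Slc6a15 and Slc7a6. Slc1a5 was at 72.9 and 73.2 CPM against 113 and 115 in WT, 1.56-fold lower (log2 change -0.64, SE 0.053, edgeR adjusted p = 1.20e-10). Slc6a15 was at 12.8 and 15 against 5.94 and 5.63, 2.4-fold higher (log2 change 1.26, SE 0.13, edgeR adjusted p = 1.05e-08), and Slc7a6 at 119 and 117 against 84.6 and 85.9, 1.38-fold higher (log2 change 0.47, SE 0.053, edgeR adjusted p = 4.04e-08). The endoderm markers were at 10927 to 11510.1 CPM in KO and 5189 to 5425 in WT, with 16 of 17 tested higher in KO and none lower. They thus moved with Slc6a15 and Slc7a6 and against Slc1a5. Of the pluripotency markers, 13 of 16 were lower in KO. The part of all these markers in the differences was not tested. Slc7a8 (log2 change -0.82, SE 0.13, edgeR adjusted p = 7.46e-06) was lower in KO, and Slc38a10 (log2 change 0.39, SE 0.05, edgeR adjusted p = 3.83e-07) and Slc7a4 (log2 change 0.78, SE 0.14, edgeR adjusted p = 5.01e-05) were higher.

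**Figure D5:**
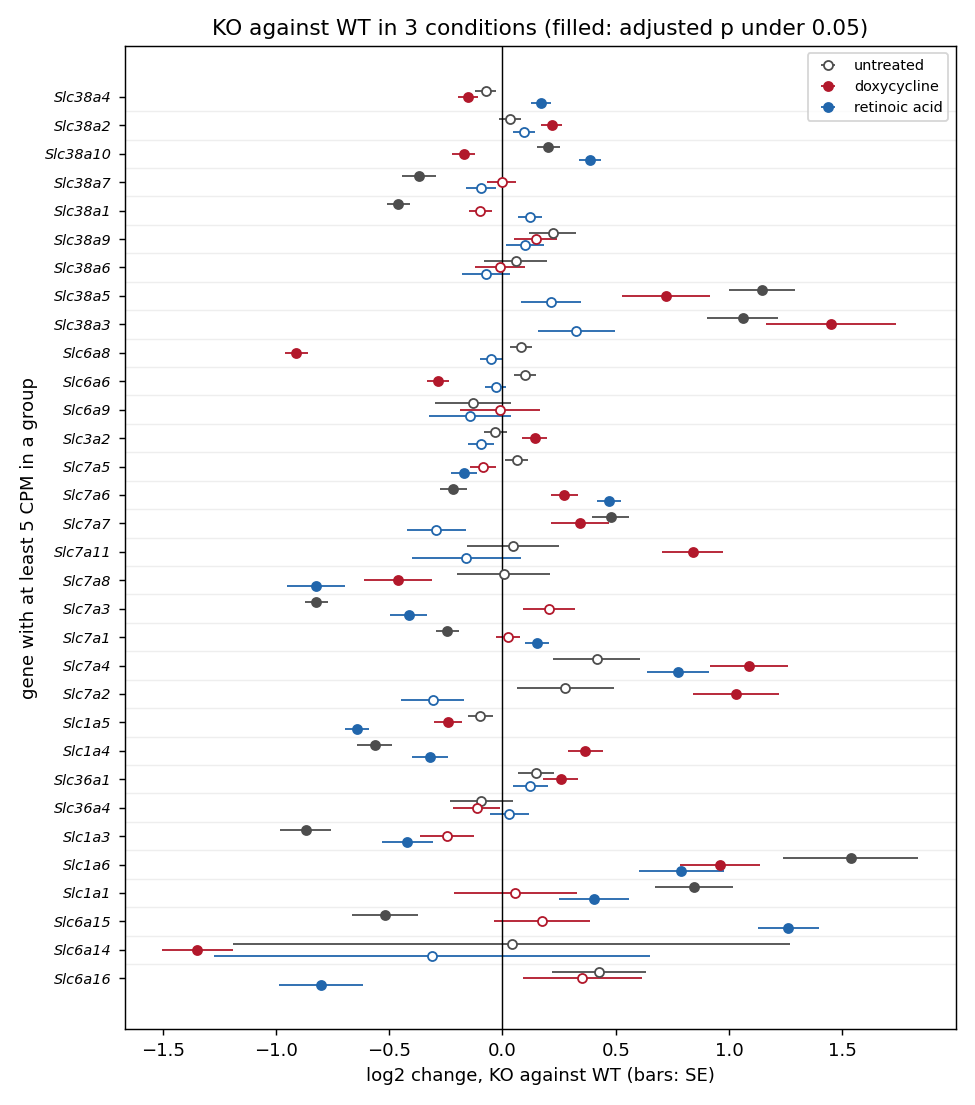
Log2 difference of KO against WT (bars, SE) in untreated, doxycycline and retinoic acid cells for 32 tested transporter genes with at least 5 CPM in a group; filled points have an edgeR adjusted p under 0.05. Slc6a15 lies left of 0 untreated and right of 0 after retinoic acid, and Slc6a8 is filled only after doxycycline.

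The treatment responses themselves differed between the lines at 12 members for doxycycline, 8 with a higher and 4 with a lower response in KO, beside 19.2% of all genes (9.11% higher and 10% lower). For retinoic acid they differed at 16 members, 8 each way, beside 17.7% (7.31% higher and 10.3% lower), and at 10 without KO retinoic acid replicate 1. Slc6a8 rose under doxycycline in WT, from 135 and 134 to 206 and 217 CPM, and fell in KO, from 143 and 142 to 116 and 109, and the difference between these responses was -0.99 on the log2 scale (SE 0.07, edgeR adjusted p = 3.03e-11). Slc1a4 did the opposite, with a difference of 0.93 (SE 0.11, edgeR adjusted p = 2.77e-07). Slc7a3 fell less far in KO, by 1.03 (SE 0.12, edgeR adjusted p = 4.71e-07), from a lower untreated level, and the treated lines did not differ past the threshold (log2 difference 0.21, 95% interval -0.072 to 0.48, edgeR adjusted p = 0.179). The larger rise of Slc7a11 in KO passed narrowly at 0.79 (edgeR adjusted p = 0.046, but 0.0655 to 0.155 without any 1 of 8 libraries, and 0.0911 when only the 4 groups compared were fitted). Slc6a6 and Slc38a10 also responded differently, by -0.39 (edgeR adjusted p = 9.95e-05) and -0.37 (edgeR adjusted p = 4.70e-04). Under retinoic acid, Slc6a15 fell in WT (log2 -0.74) and rose in KO (log2 1.04), a difference of 1.78 (SE 0.20, edgeR adjusted p = 1.08e-07).

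Genes around the carriers were read from lists drawn up by known function, beside 31.8% of all genes higher and 31.3% lower in WT under doxycycline, and 41% and 32.9% under retinoic acid. Of 20 aminoacyl-tRNA synthetases of the cytosol, which load the imported amino acids onto tRNA, none rose and 17 fell in WT under doxycycline and none rose and all 20 fell under retinoic acid, with list medians of -0.65 and -1.26 (all genes 0 and 0.12). In TPM these medians were -0.49 and -0.76, and 2 of the 20 called lower under retinoic acid were higher. Of 46 genes of amino acid synthesis and breakdown, 6 rose and 32 fell in WT under doxycycline and 7 and 32 under retinoic acid, or 82.6% and 84.8% called, against 63% and 73.9% of all genes. Under retinoic acid 3 of the 32 called lower were higher in TPM, and the list median was -0.76 in scaled counts and -0.24 in TPM. Tdh, the threonine dehydrogenase on which mouse stem cells rely, went from 268 and 270.4 CPM to 2.52 and 2.42 under doxycycline, 109-fold lower (log2 change -6.77, SE 0.089, edgeR adjusted p = 8.36e-30), and to 8.75 and 7.72 under retinoic acid, 32.6-fold lower (log2 change -5.02, SE 0.071, edgeR adjusted p = 1.26e-28). Of 24 targets of ATF4 and the amino acid response, 5 rose and 15 fell in WT under doxycycline and 8 and 14 in KO, and the difference between the responses was higher in KO for 10 and lower for none (41.7%, beside 19.2% of all genes). The KO cells started lower: untreated, 13 of the 24 were lower than in WT and 1 higher (58.3%, beside 30% of all genes). After doxycycline 8 were higher in KO and 5 lower (54.2%, beside 37%). Asns, the asparagine synthetase and a standard readout of that response, went from 423 and 443 CPM to 129.7 and 133 in WT under doxycycline, 3.29-fold lower (log2 change -1.72, SE 0.049, edgeR adjusted p = 4.64e-22), while Slc7a11 rose in the same libraries. Atf4 itself was at 221 and 226 CPM in untreated WT cells and at 242 and 235 after doxycycline.

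Of 30 genes that report amino acids to mTORC1, 12 rose and 9 fell in WT under doxycycline, and 7 rose and 18 fell under retinoic acid. The 70% called under doxycycline lie near the 63% of all genes. Under retinoic acid 83.3% were called beside 73.9%, but the list median was -0.24 in scaled counts and 0.22 in TPM, and 10 of the 18 called lower were higher in TPM, so that direction depends on the scale. Rragd, a Rag GTPase of that pathway, rose most, 8.05-fold higher (log2 change 3.01, SE 0.065, edgeR adjusted p = 6.12e-25) in WT and by a log2 change of 4.23 in KO. Of 16 glutathione and Nrf2 target genes, the pathway that xCT feeds, 5 rose and 6 fell in WT under doxycycline, 68.8% in all and near the share of all genes; Hmox1 rose (log2 change 1.35, SE 0.06, edgeR adjusted p = 1.28e-16) and Gsr, the glutathione reductase, fell (log2 change -1.48, SE 0.074, edgeR adjusted p = 2.00e-16). Of 21 amino acid carriers outside the 6 families, 8 rose and 8 fell under doxycycline in WT (76.2%, beside 63% of all genes) and 9 and 9 under retinoic acid (85.7%, beside 73.9%). Of those called lower, 1 of 8 under doxycycline and 4 of 9 under retinoic acid were higher in TPM. The direction of those falls depends on the scale, while the other falls kept theirs in TPM. The intestinal peptide carrier Slc15a1 fell (log2 change -3.56, SE 0.23, edgeR adjusted p = 1.01e-13) and the leucine carrier Slc43a2 rose (log2 change 1.68, SE 0.081, edgeR adjusted p = 8.47e-17) under doxycycline. Among 11 partners and regulators of the carriers, Slc3a2 included, 5 rose and 5 fell in WT under doxycycline (90.9%, beside 63% of all genes). Txnip, an arrestin-like protein among them, went from 230.4 and 229 CPM to 98.9 and 104 under doxycycline and to 1475 and 1744 under retinoic acid.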

How the data were processed

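RNA-seq libraries of 6 groups, 2 per group, were analysed. Per the submitters' processing notes, STAR 2.5.3a, RSEM 1.3.0, DESeq2 1.18.1 and the build mm10 were used, while which annotation release was counted, and with which strand option, is not given in the sources used here. The authors deposited an RSEM expected count and a TPM value for each gene and library. TPM served for levels between genes. Expected counts were rounded, filtered (minimum count 10, 17884 genes kept), scaled by TMM and fitted with edgeR 4.0.16 in R 4.3.3 (quasi-likelihood, robust, 1 term per group over 12 libraries, 6 residual degrees of freedom), which had been tested on simulated data. p-values were adjusted by the Benjamini-Hochberg method over all genes tested in each of 11 contrasts, with calls under 0.05, and CPM are rounded counts over TMM-scaled totals. The spread between libraries was small, with a biological coefficient of variation of 4.38%, so small changes could pass. Gene positions come from GENCODE M21 (GRCm38), in which 53274 of 53379 identifiers were found. Alternatives were other scaling factors, DESeq2 1.42.0, no filter, only the groups compared, the replicate block, no chromosome 1 genes and leaving out each library. The members and lists were chosen with earlier results of these data known. Values per library are given for the 10 members with the highest mean TPM and for Slc3a2, Slc7a5, Slc7a11, Slc7a1, Slc7a3, Slc1a5, Slc38a2 and Slc38a4. They are also given for part of the members called with a log2 change of at least 1, no overlap and at least 1 CPM. Of these, mainly the larger changes of each class are in full. Others within these limits, such as Slc6a4, Slc6a7, Slc6a19, Slc38a7, Slc38a8 and Slc7a14, have no values per library here. Pairing by replicate number was checked and not used. The values of 1 tested member, which the counts and class sums include, are not reported here.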

Additional observations from a re-analysis of the deposited data

Results flagged for a closer look

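At 27 places the response of a carrier to a treatment differed between KO and WT by a test of that difference (edgeR, interaction of line and treatment, adjusted over all genes; log2, KO minus WT). Under doxycycline the response was lower in KO for Slc6a7 (-1.35, adjusted p = 0.0278), Slc6a8 (-0.99, adjusted p = 3.03e-11), Slc6a6 (-0.39, adjusted p = 9.95e-05) and Slc38a10 (-0.37, adjusted p = 4.70e-04). It was higher in KO for Slc7a1 (0.27, adjusted p = 0.00981), Slc38a1 (0.36, adjusted p = 4.97e-04), Slc38a7 (0.37, adjusted p = 0.00747), Slc7a6 (0.49, adjusted p = 8.61e-05), Slc1a3 (0.62, adjusted p = 0.00663), Slc7a11 (0.79, adjusted p = 0.046), Slc1a4 (0.93, adjusted p = 2.77e-07) and Slc7a3 (1.03, adjusted p = 4.71e-07). Under retinoic acid the response was lower in KO for Slc6a16 (-1.23, adjusted p = 0.00217), Slc38a5 (-0.93, adjusted p = 0.00121), Slc7a8 (-0.83, adjusted p = 0.0167), Slc7a7 (-0.77, adjusted p = 5.70e-04), Slc38a3 (-0.73, adjusted p = 0.0259), Slc1a5 (-0.54, adjusted p = 5.85e-06) and Slc7a5 (-0.23, adjusted p = 0.0362). It was higher in KO for Slc38a4 (0.24, adjusted p = 0.00902), Slc7a1 (0.39, adjusted p = 2.52e-04), Slc7a3 (0.41, adjusted p = 0.00342), Slc1a3 (0.45, adjusted p = 0.0498), Slc38a1 (0.58, adjusted p = 1.23e-06), Slc7a6 (0.69, adjusted p = 2.55e-07), Slc6a15 (1.78, adjusted p = 1.08e-07) and Slc7a9 (2.72, adjusted p = 0.0437). Slc1a3, Slc38a1, Slc7a1, Slc7a3 and Slc7a6 had a higher response in KO to both treatments, and those comparisons share their untreated libraries. Not all of these calls held under the alternatives. Under doxycycline the edgeR adjusted p was 0.0568 without WT untreated replicate 2 for Slc1a3, 0.0542 without KO untreated replicate 1 and 0.0905 without WT untreated replicate 1 for Slc7a1 and 0.0548 without KO untreated replicate 2 and 0.0839 without WT untreated replicate 2 for Slc38a7. For Slc6a7 it was 0.0825 without KO untreated replicate 1, 0.0917 without KO doxycycline replicate 2, 0.12 without WT untreated replicate 1 and 0.147 without WT doxycycline replicate 1, with 0.12 by DESeq2, and for Slc7a11 it was 0.0655 to 0.155 without any 1 of 8 libraries. Under retinoic acid it was 0.0513 without KO retinoic acid replicate 1 for Slc38a4, and for Slc1a3 0.0553 to 0.24 without any 1 of 7 libraries, the call also being lost without the filter, with the replicate block, without chromosome 1 genes and by DESeq2 (up to 0.24). For Slc7a5 it was 0.0546 to 0.16 without any 1 of 8 libraries, with 0.0681 for RLE factors and 0.131 by DESeq2. For Slc38a3 it was 0.0561 to 0.306 without any 1 of 6 libraries, with 0.182 by DESeq2, and for Slc7a8 0.222 without KO untreated replicate 1, 0.058 without KO retinoic acid replicate 1, 0.125 without WT untreated replicate 1 and 0.061 without WT retinoic acid replicate 2, with 0.0903 by DESeq2. For Slc7a9 it was 0.0561 to 0.187 without any 1 of 9 libraries. Slc7a9 was under 1 CPM in each group, so its fitted difference is no measure of size.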

How the results depend on the processing

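Of 315 calls of a member in a contrast, 240 were lost under no count-based alternative that gave an adjusted p and 75 under at least 1, 54 of them under a setting other than leaving out a library; none changed direction. An adjusted p was given by every alternative for 299 of the calls, of which 237 were never lost, and 16 had none under at least 1. The number of members called stayed within 1.5 times except that leaving out WT retinoic acid replicate 1 took KO against WT after retinoic acid from 23 to 14, leaving out KO retinoic acid replicate 1 took it to 15, and the latter took the difference in retinoic acid response from 16 to 10. Leaving out 1 library at a time gave 13 to 16 (untreated), 17 to 22 (doxycycline) and 14 to 23 (retinoic acid) members for KO against WT, 32 to 35 and 32 to 38 for doxycycline in WT and KO, 32 to 39 and 35 to 39 for retinoic acid, 31 to 34 and 36 to 41 for doxycycline against retinoic acid, and 9 to 14 and 10 to 17 for the differences in response to doxycycline and retinoic acid. Deviations of same-numbered libraries correlated at -0.17 to 0.058 over 15 pairs, so the numbers do not pair the samples; with the replicate block KO against WT gave 16 members untreated and 23 after doxycycline, and 23 with the KO doxycycline numbers crossed, an alternative chosen after seeing the data.

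The TPM scale, also chosen after seeing the data and without a test, moved the median gene by 0.46 for retinoic acid, 0.12 for doxycycline and -0.35 for doxycycline against retinoic acid. Calls whose TPM difference had the other sign were, for retinoic acid in WT, Slc36a1 0.26, Slc38a2 0.28, Slc38a3 0.22, Slc6a8 0.19; in KO, Slc1a4 0.19, Slc1a5 0.13, Slc36a1 0.15, Slc38a1 0.12, Slc38a2 0.34, Slc38a5 0.16, Slc6a8 0.0535, Slc6a9 0.25, Slc7a1 0.00526; for doxycycline against retinoic acid in WT, Slc36a1 -0.0601, Slc7a1 -0.13, and in KO, Slc6a9 -0.0221, Slc7a1 -0.22; for doxycycline in KO, Slc6a6 0.0553; and for KO against WT after doxycycline, Slc7a7 -0.00312. The cause was not tested. Genes of a few counts per library are limited by depth, with 3 counts equal to 0.132 to 0.204 CPM.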
